A study of Mus musculus with 8 samples.

Results

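Molecular chaperones are described here as 61 gene rows, out of 11756 in the deposited table, in mouse CD11c positive bone marrow cells that were given modified lipoprotein or were not. The 61 were chosen by symbol alone, as Hspa, Hspb, Hspd, Hspe and Hsph genes, Dnaja, Dnajb and Dnajc genes, Cct genes and Tcp1. No measured value entered this rule, but earlier results of these data were known when members were chosen. Bone marrow of C57BL/6 mice supplied the cells, CD11c positive cells were isolated by flow cytometry, and on culture day 6 either acetylated low density lipoprotein (acLDL) was given for 24 h (4 libraries, acLDL 1 to 4) or none was (4 libraries, control 1 to 4). CD11c is an integrin of dendritic cells and some macrophages, and acLDL is taken up through scavenger receptors. No other treatment or allele is named for either group. Whether the 4 libraries of a group stem from different animals or cultures is not said in the labels, and the p-values cover only variation among these libraries, part of which may be technical.

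Chaperones bind unfolded or newly made proteins and help them reach or keep their folded form. HSP70 proteins bind and release short unfolded stretches in a cycle driven by ATP, J proteins (the Dnaj genes) bring clients to them and start ATP hydrolysis, and exchange factors such as the HSP110 proteins reset the cycle. Chaperonins are closed barrels that enclose a whole protein: the CCT complex in the cytosol, which folds actin and tubulin, and HSP60 with its lid HSP10 in mitochondria. Heat shock factor switches on the inducible cytosolic members, and the unfolded protein response those of the endoplasmic reticulum (ER).

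Values are the authors' normalized signal per gene, and a log2 fold change is the mean of log2(value + 5) with acLDL minus that in controls. Fold changes on this scale understate the change of low genes, and a gene listed at 0 may have been set to 0 by a filter, since no value between 0 and 5 occurs. Of the 61 members, 55 passed the filter on low values (at least 10 in at least 4 libraries) and were tested together with all 10091 genes that passed it. The other 6 (Cct6b, Hspa1a, Hspa2, Hspbp1, Dnajb13 and Hspb6) were listed between 0 and at most 80.0. Hspa1a, the classical inducible HSP70 gene, had 7.74, 6.55, 0 and 5.74 in acLDL libraries 1 to 4, against 11.3, 21.2, 5.21 and 0 in control libraries 1 to 4. The groups overlapped, and with no filter on low values limma tested all 61 members and called 0 of them. Hspa1a has a near copy in the genome, Hspa1b, with which reads may have been shared, so its level is uncertain for this reason too.

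Libraries did not fall apart by group alone, which touches every result below. Of the variance over all tested genes, 62.6% lay along the first principal component. Scores of the acLDL libraries, 1 to 4, were -66.6, 95.6, 129 and 32.2, against 9.22, -75.3, -67.3 and -56.5 for the controls. The mean log2 deviation of 487 genes with transcripts under 1000 nt, none of them a chaperone, was likewise lowest in acLDL 3 and 2 and high in acLDL 1 and controls 2 to 4: 1.11, -1.36, -2.26 and -0.29 in acLDL libraries 1 to 4, against 0.06, 0.94, 1.08 and 0.72 in control libraries 1 to 4. Library acLDL 1 lay beside controls 2 to 4, and acLDL 2 and 3 lay farthest from them. Markers of other cells moved as well: 7 of 8 measured granulocyte genes had a lower mean. Their sum was 479 to 11338 with acLDL, against 5413 to 13186 in controls, with Camp at 0 in acLDL 2 and 3 and Ngp at 0 in acLDL 3. Granulocyte genes with long transcripts moved less: Ltf (2743 nt) had a log2 fold change of 0.31 and Mpo (2750 nt) one of -0.22. The granulocyte median was -2.02, and -0.091 with the mean of the short-transcript genes as a covariate. The sorting marker Itgax (CD11c) had 189, 10, 0 and 42.7 with acLDL, against 81.5, 182, 195 and 172 in controls, and 5 of 6 tested markers of the sorted cell had a lower mean, with sums of 9305 to 18221 with acLDL, against 10038 to 16773 in controls. The other marker, Csf1r, was higher in mean, with 4087, 8639, 9634 and 5872 with acLDL, against 5577, 3838, 3929 and 3899 in controls. Sorted cell markers had a median log2 fold change of -2.14, and of 0.0064 with the same covariate. The only erythroid gene measured, Hbb-bs, had 54.1 to 189.7 with acLDL, against 164 to 1429 in controls. Lymphocyte genes (2 measured) summed to between 29.4 and 76.8, against 16.6 and 31.4, mast cell and basophil genes (3 measured) to between 21 and 60.2, against 25.0 and 99.0, and the stromal gene Sparc ranged from 17.4 to 111, against 12.2 to 24.7. The part of these differences in the chaperone values was not tested, and in bulk RNA fewer cells of a type and less RNA per cell cannot be told apart. For this reason fold changes of the genes described most closely are also given without acLDL 2 and 3. They are also given with the short-transcript mean as a covariate. That mean averaged -0.70 ± 1.45 with acLDL, against 0.70 ± 0.45 in controls (SD, n = 4 each). The covariate thus cannot be fully told apart from treatment, and adjusting for it may also take out part of an acLDL effect.

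No chaperone gene passed the threshold when acLDL was set against control, a contrast that addresses lipid loading of these cells. The smallest adjusted p among members was 0.298 in limma, over all 10091 genes tested, of which 0% were called. Of the 55 members tested, 35 (63.6%) had a lower and 20 a higher mean with acLDL, against 55.7% lower among all tested genes. On the log2 scale, members had a median fold change of -0.28 and all tested genes one of -0.13. The members' median turned to 0.044 after quantile normalization, where that of all genes turned to 0.15. At an unadjusted p under 0.05 in limma there were 3 lower members (5.45%; Dnajb5, Cct5 and Cct3) and 3 higher ones (5.45%; Hspa4, Cct8 and Hspa5), against 8.93% and 7.42% of all genes. Both shares lay below the background. Only 1 member, Hspa4, was free of overlap between acLDL and control values, with acLDL above, against 3.44% of all genes above and 2.2% below. Chaperone rows together took 0.436% ± 0.067 (SD, n = 4) of the summed signal with acLDL and 0.485% ± 0.040 in controls, and the ranges overlapped.

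**Figure D1:**
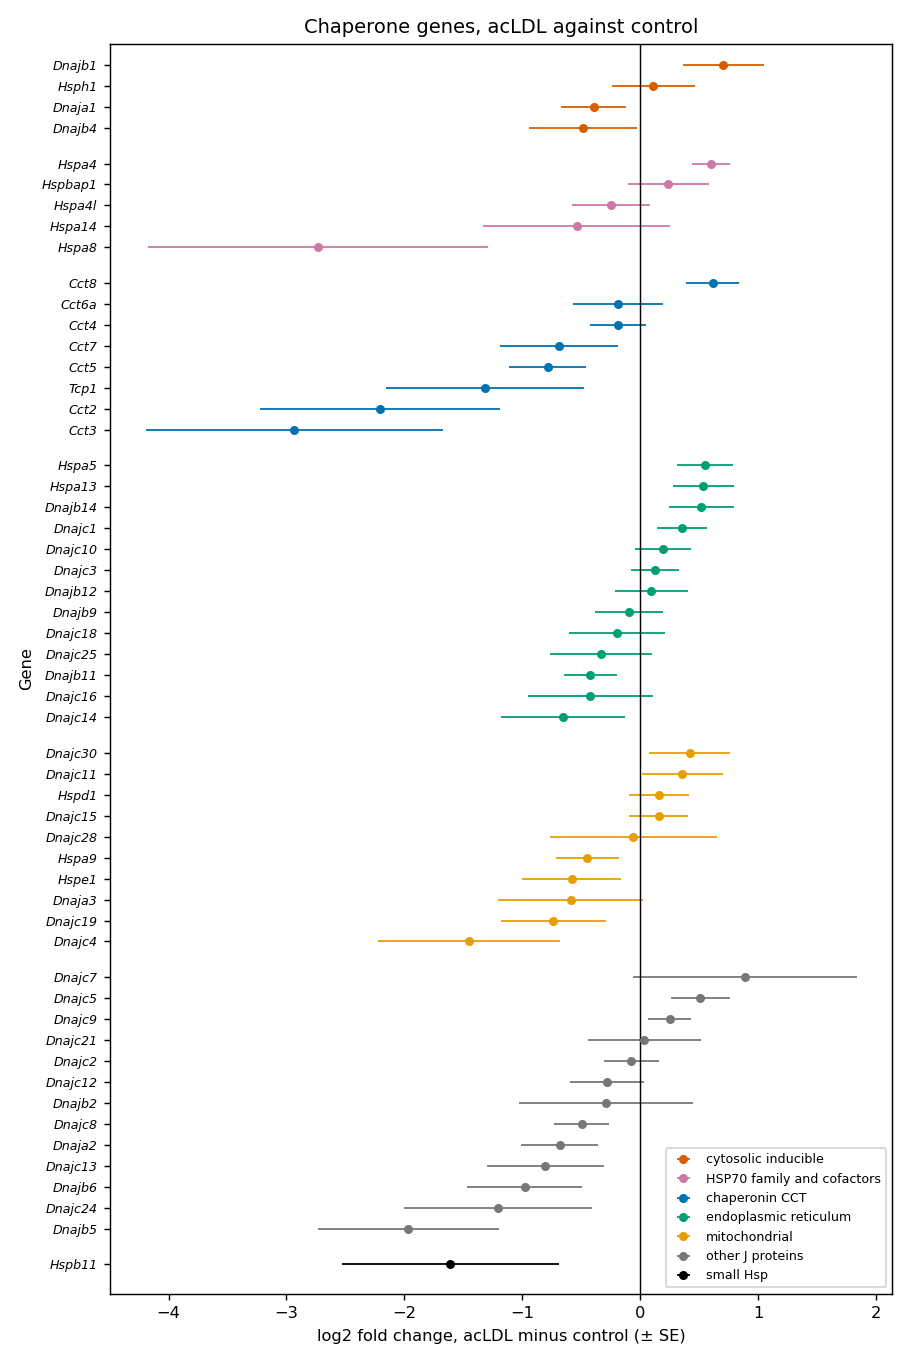
Log2 fold change (acLDL minus control, x axis) of 54 tested chaperone genes (y axis), grouped by class. Points are limma estimates from 4 libraries a group and bars are 1 standard error. The chaperonin genes run from -2.93 (Cct3) to 0.62 (Cct8), while the ER genes lie between -0.65 and 0.55.

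**Figure D2:**
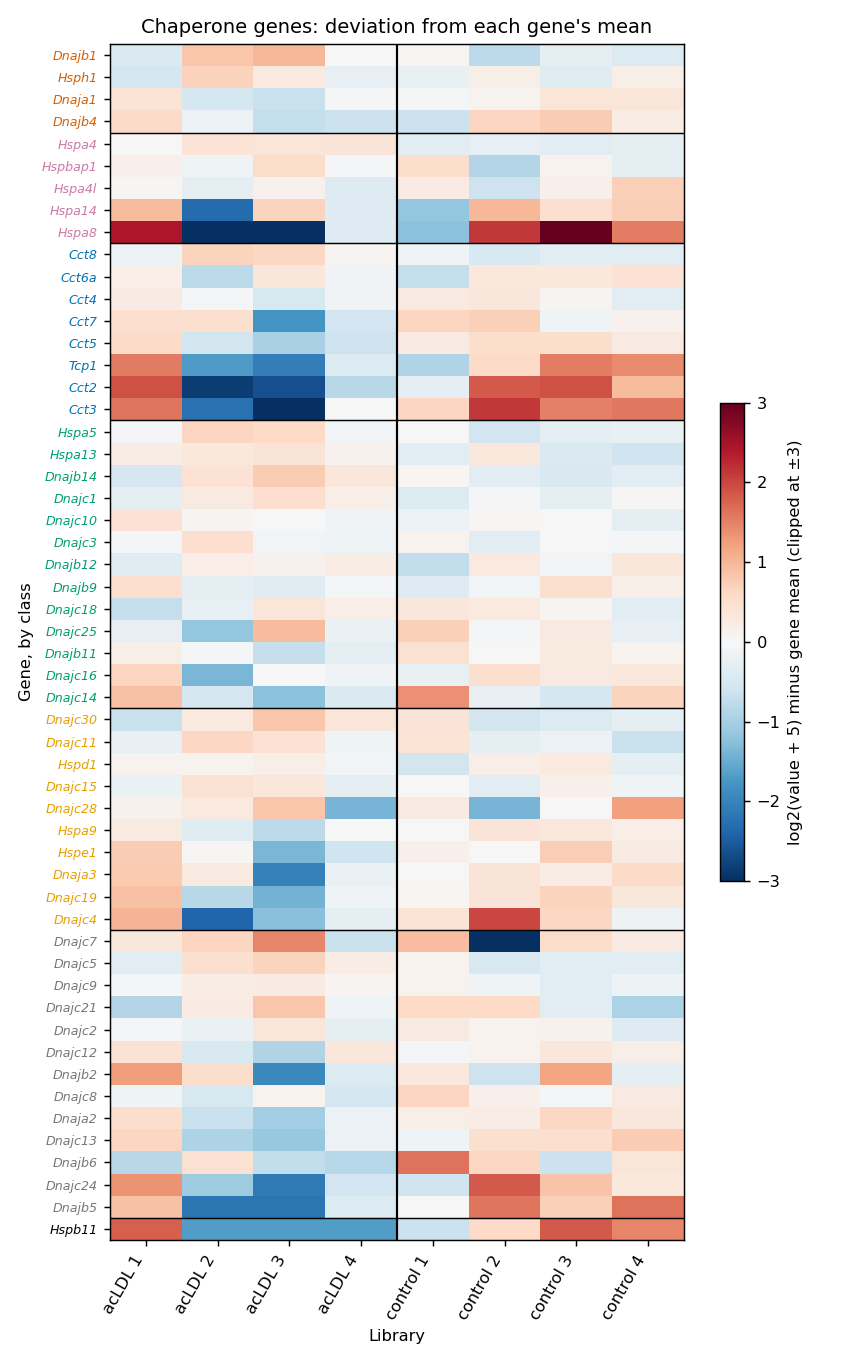
Deviation of log2(value + 5) from each gene's mean over the 8 libraries, for 54 tested chaperone genes in rows (label colour and black lines mark the class) and libraries in columns, acLDL 1 to 4 left of the black line and control 1 to 4 right of it. Blue is lower and red is higher, with colours clipped at 3 log2 units. Hspa8, Cct2 and Cct3 are low in acLDL 2 and 3 and high in acLDL 1 and controls 2 to 4.

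Genes of the cytosolic heat shock response went apart and none passed the threshold. Of 4 tested, 2 had a higher mean (Dnajb1 and Hsph1) and 2 a lower mean (Dnaja1 and Dnajb4), and the class median of -0.14 turned to 0.20 after quantile normalization. Dnajb1, the J protein that heat shock induces together with HSP70, had 473, 1142, 1287 and 638 in acLDL libraries 1 to 4, against 662, 367, 531 and 479 in control libraries 1 to 4. Its 2 highest libraries were acLDL 2 and 3, while acLDL 1 and 4 lay among the controls. The log2 fold change of Dnajb1 was 0.71 (SE 0.35, limma's adjusted p = 0.301), 0.14 without acLDL 2 and 3, and 0.054 with the covariate. Hsph1, an HSP110 exchange factor that heat also induces, had 29.3, 74.5, 54.8 and 36.7 with acLDL, against 36.9, 50.5, 33.4 and 50.7 in controls. The groups overlapped, and its log2 fold change of 0.11 (SE 0.35) turned to -0.32 without acLDL 2 and 3 and to -0.27 with the covariate. Dnaja1, a cytosolic J protein that carries a farnesyl lipid anchor, had 319.6, 164, 149 and 233 with acLDL, against 229, 257, 308 and 308 in controls. Its groups overlapped too, at a log2 fold change of -0.39 (SE 0.27) that came to 0.075 with the covariate.

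Hspa4 was the member with the smallest p. It encodes a large HSP70 relative of the HSP110 kind that acts as an exchange factor (chromosome 11, 53259814 to 53300457, minus strand, GRCm38). Its values were 1286, 1689, 1643 and 1658 in acLDL libraries 1 to 4, against 1005, 1068, 994 and 1046 in control libraries 1 to 4. Every acLDL library lay above every control, although acLDL 1 was the lowest of its group, and the controls lay within a narrow range. Mean signal of Hspa4 was 1569 ± 189.8 under acLDL, against 1028 ± 35.0 under control conditions (SD, n = 4 each). This gave a log2 fold change of 0.60 (SE 0.16), limma's unadjusted p = 0.0046 and adjusted p = 0.298. Its log2 fold change was 0.50 without acLDL 2 and 3 and 0.47 with the covariate. Leaving out acLDL 1, its lowest acLDL value, necessarily raised the fold change, to 0.69. Hspa4 then passed the threshold (limma's adjusted p = 0.025), as did 7.28% of all tested genes as higher, so this adds no separate support.

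Hspa8, the constitutive cytosolic HSP70, spread widely within both groups. Its values were 3612, 49.6, 42.15 and 509 in acLDL libraries 1 to 4, against 285, 2960.2, 5461 and 1964 in control libraries 1 to 4. Library acLDL 1 lay among the controls, control 1 lay below acLDL 4, and acLDL 2 and 3 were the lowest. The log2 fold change of Hspa8 was -2.73 (SE 1.44, limma's adjusted p = 0.311), -0.36 without acLDL 2 and 3, and 0.32 with the covariate. Hspa8 lies on chromosome 9 (40800984 to 40810087, plus strand, GRCm38), and its longest coding transcript has a 3' untranslated region (3' UTR) of 83 nt. It has many processed copies in mammalian genomes, so shared reads may enter its value. The other tested genes of this class, Hspa4l, Hspa14 and the HSP27-associated Hspbap1, had log2 fold changes from -0.54 to 0.24, and their groups overlapped.

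**Figure D3:**
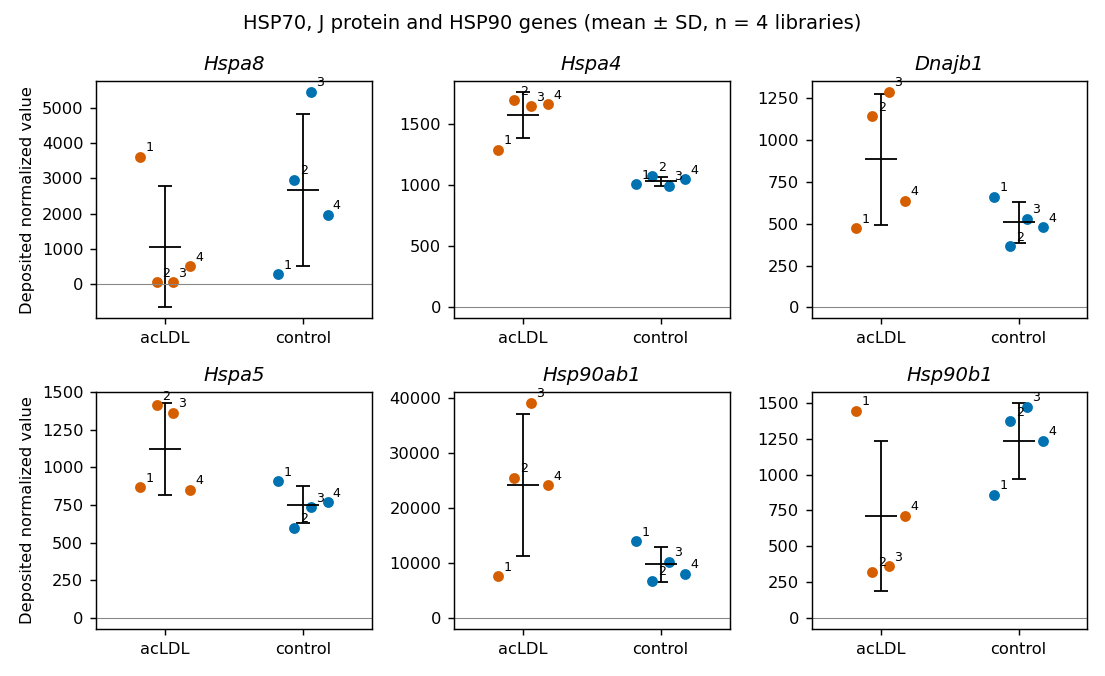
Deposited normalized values (y axis, with 0 shown) of 4 chaperone genes and of the HSP90 genes Hsp90ab1 and Hsp90b1, which the symbol rule leaves out, by group (x axis). Points are libraries with their replicate number, horizontal bars are means and whiskers are SD (n = 4). Only for Hspa4 among these 6 do the groups not overlap, and the point of acLDL 1 lies among the controls in the other 5.

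The chaperonin CCT is built from 8 different subunits in equal number, and 7 of the 8 tested subunit genes had a lower mean with acLDL (6 after quantile normalization, where Cct6a turned). The class median was -0.74, against -0.13 for all tested genes, and none of the 8 passed the threshold. With the short-transcript covariate 4 subunit genes were higher and 4 lower, at a median of -0.036, and without acLDL 2 and 3 the median was -0.23. Cct3 had 1452, 95.9, 7.41 and 474 in acLDL libraries 1 to 4, against 738, 2070.4, 1350.2 and 1418 in control libraries 1 to 4. It was near the controls in acLDL 1 and lowest in acLDL 3. Cct3 (chromosome 3, 88297116 to 88321767, plus strand, GRCm38) had the lowest log2 fold change of all members, at -2.93 (SE 1.26, limma's adjusted p = 0.298), and -0.65 without acLDL 2 and 3. Cct2 had 346, 8.02, 10.1 and 47.9 with acLDL, against 72.5, 332, 346 and 176 in controls, with acLDL 2, 3 and 4 below every control and acLDL 1 within their range (log2 fold change -2.21, SE 1.02, and -0.57 without acLDL 2 and 3). With the covariate, Cct3 came to -0.24 and Cct2 to -0.093. Cct5 had 276, 123, 91.4 and 117 with acLDL, against 221, 266, 265 and 221 in controls. For Cct5, acLDL 2, 3 and 4 lay below every control and acLDL 1 above every control. The log2 fold change of Cct5 was -0.79 (SE 0.33), -0.42 without acLDL 2 and 3, and -0.215 with the covariate.

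Cct8, the theta subunit, stood on the other side. Its values were 592, 1047, 1019 and 698 in acLDL libraries 1 to 4, against 597, 478, 530.0 and 522 in control libraries 1 to 4. Here acLDL 2, 3 and 4 lay above every control, and acLDL 1 lay within their range. Cct8 (chromosome 16, 87483326 to 87495873, minus strand, GRCm38) averaged 839 ± 228 with acLDL, against 532 ± 48.9 in controls (SD, n = 4 each). Its log2 fold change was 0.62 (SE 0.23, limma's adjusted p = 0.298). It was 0.28 without acLDL 2 and 3 and 0.25 with the covariate.

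The remaining subunits lay between these. Tcp1, the alpha subunit, had 292, 26.1, 19.1 and 71.9 with acLDL, against 48.9, 146, 291 and 268 in controls. Cct7 had 497, 487, 98.2 and 235 with acLDL, against 552, 579, 322 and 382 in controls. Cct4 had 359.7, 295, 215 and 278 with acLDL, against 367, 381, 319 and 241 in controls. All 3 overlapped between groups, at log2 fold changes of -1.32 (SE 0.84) for Tcp1, -0.69 (SE 0.50) for Cct7 and -0.19 (SE 0.23) for Cct4. With the covariate, Tcp1 turned to 0.37 and Cct4 to 0.035, and Cct7 came to -0.11. Cct6a had 68.7, 31.2, 75.5 and 54.5 with acLDL, against 34.05, 73.8, 74.9 and 81.6 in controls, with no order by group (log2 fold change -0.18, SE 0.38, and 0.14 after quantile normalization). Its relative Cct6b, used mainly in testis, was listed at 29.7 or less in every library. The ratio of Cct8 to Cct3, chosen after the values were seen, was 0.408, 10.9, 138 and 1.47 in acLDL libraries 1 to 4, against 0.808, 0.231, 0.393 and 0.368 in control libraries 1 to 4. Messages of this pair of subunits of a single complex were thus measured in very unequal proportion between acLDL libraries. Between controls their proportion varied less.

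**Figure D4:**
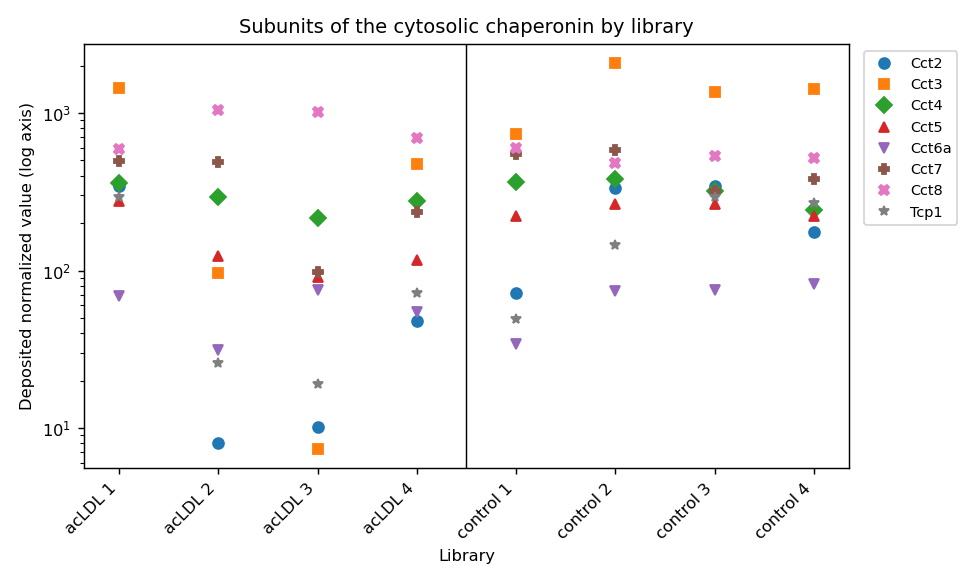
Deposited normalized values (log y axis) of the 8 tested CCT subunit genes in each library (x axis), acLDL 1 to 4 left of the line and control 1 to 4 right of it. Each point is 1 gene in 1 library. In acLDL 2 and 3, Cct8 is above 1000 while Cct2 is near 10, while in acLDL 1 and every control Cct3 is above Cct8.

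ER chaperones were divided, with 7 of 13 tested genes higher and 6 lower in mean, and a class median of 0.095 (0.31 after quantile normalization). None passed the threshold. Hspa5, which encodes the ER HSP70 BiP (chromosome 2, 34771970 to 34777547, plus strand, GRCm38), had 868, 1414, 1364 and 852 in acLDL libraries 1 to 4, against 907, 601, 737 and 770.3 in control libraries 1 to 4. Control 1 lay above acLDL 1 and 4, so the groups overlapped. Hspa5 averaged 1125 ± 306 with acLDL, against 754 ± 126 in controls (SD, n = 4 each), and its log2 fold change was 0.55 (SE 0.24, limma's adjusted p = 0.298), 0.20 without acLDL 2 and 3 and also 0.20 with the covariate. Hspa13, a microsomal HSP70 relative, had 131, 141, 148 and 124 with acLDL, against 86.6, 139.8, 80.9 and 72.25 in controls. Only control 2 reached the acLDL range, and the log2 fold change of Hspa13 was 0.54 (SE 0.26, limma's adjusted p = 0.300), 0.45 without acLDL 2 and 3 and 0.49 with the covariate.

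The J proteins that work with BiP did not follow it as a group. Dnajb11 (ERdj3), which binds unfolded clients and passes them to BiP, had 814, 705, 445 and 588 with acLDL, against 991, 716, 883 and 777 in controls (log2 fold change -0.42, SE 0.23). Dnajc3 (p58IPK) had 979, 1413, 937 and 910.1 with acLDL, against 1081, 801, 1003 and 953 in controls (log2 fold change 0.13, SE 0.20, and -0.015 without acLDL 2 and 3). Dnajb9 (ERdj4), induced in ER stress, had 213, 120.2, 113 and 144 with acLDL, against 112, 139.9, 209 and 167 in controls (log2 fold change -0.093, SE 0.29). In all 3 the groups overlapped, and with the covariate Dnajb11 came to -0.20, Dnajc3 to 0.038 and Dnajb9 to 0.33. Dnajb14, a J protein of the ER membrane, had 799.9, 1530.2, 1940.1 and 1451 with acLDL, against 1182, 917, 830.4 and 903 in controls, so that acLDL 2, 3 and 4 lay above every control and acLDL 1 below every control. Its log2 fold change of 0.52 (SE 0.28) was 0.18 without acLDL 2 and 3 and 0.0055 with the covariate. The other 7 tested ER genes had log2 fold changes from -0.65 (Dnajc14) to 0.36 (Dnajc1).

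Promoters of Hspa5 and Dnajc3 are printed because they carry the site by which ER stress acts on such genes. The ER stress response element was searched as CCAAT and CCACG with any 9 bases between them, on both strands, within 250 bases before to 50 after the gene starts of RefSeq (GRCm38.p6). Of 32851 such promoters 0.119% hold it, as do 2 of 66 promoters of members. Hspa5 and Dnajc3 are the only holders among the 50 members whose promoter was found. The element includes a CCAAT box. Capitals mark it in the 250 bases before each start, which lie within chr2:34771840-34772139 for Hspa5 and chr14:118937682-118937981 for Dnajc3, both on the plus strand.
Hspa5: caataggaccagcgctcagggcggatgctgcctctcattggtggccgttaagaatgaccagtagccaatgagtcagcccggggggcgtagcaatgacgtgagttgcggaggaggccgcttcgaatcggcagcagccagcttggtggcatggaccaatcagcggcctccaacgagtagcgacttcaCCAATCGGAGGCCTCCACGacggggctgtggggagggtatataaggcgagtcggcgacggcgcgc
Dnajc3: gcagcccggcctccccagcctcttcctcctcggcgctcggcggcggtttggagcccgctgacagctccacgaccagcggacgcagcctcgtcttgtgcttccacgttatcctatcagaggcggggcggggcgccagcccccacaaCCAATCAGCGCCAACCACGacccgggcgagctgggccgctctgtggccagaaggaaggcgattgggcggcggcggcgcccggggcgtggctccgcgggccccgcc
The element begins at position -65 for Hspa5 and -105 for Dnajc3, counted from the start. A match is a description of the sequence, not a bound site.

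Mitochondrial chaperones showed no common direction, with 4 of 11 tested genes higher and 7 lower in mean. Their median of -0.45 turned to 0.028 after quantile normalization, and none passed the threshold. Hspd1 (HSP60) had 129.5, 129.8, 135 and 113 in acLDL libraries 1 to 4, against 80.4, 138, 147 and 98.3 in control libraries 1 to 4. Its acLDL values all lay within the range of the controls, at a log2 fold change of 0.16 (SE 0.25). Hspe1 (HSP10), the lid of HSP60, had 741, 442, 165 and 287 with acLDL, against 484, 431, 726 and 526 in controls. Here acLDL 3 and 4 were the lowest and acLDL 1 the highest, at a log2 fold change of -0.58 (SE 0.42) that came to 0.11 with the covariate. Reads of similar sequences may enter the value of Hspe1, so its level is uncertain.

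Hspd1 and Hspe1 lie head to head on chromosome 1 (55077835 to 55088243, minus strand, and 55088132 to 55091307, plus strand, GRCm38) and share a promoter, which is shown because it holds the site that heat shock factor binds. The heat shock element was searched as GAA, TTC and GAA with any 2 bases between neighbours, on both strands. It stands in 0.603% of all promoters and in 6 of 66 promoters of members, which belong to 4 genes: Hspd1, Hspe1, Hsph1 and Dnajb6. In Hsph1 the match lies after the start. Sites that depart from this pattern were not searched, so members without a match may still hold one. The run below is the 250 bases before the start of Hspe1 on the plus strand, within chr1:55087898-55088197 of RefSeq (GRCm38.p6), and capitals mark 18 bases that hold 2 overlapping matches, at 55088059 to 55088076.
Hspe1: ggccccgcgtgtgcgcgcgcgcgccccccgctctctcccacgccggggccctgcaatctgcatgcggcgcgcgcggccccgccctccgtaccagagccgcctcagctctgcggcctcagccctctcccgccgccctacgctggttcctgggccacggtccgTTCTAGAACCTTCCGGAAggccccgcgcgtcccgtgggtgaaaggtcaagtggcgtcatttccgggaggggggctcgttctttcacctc
Read on the minus strand, the same 18 bases lie at position -144 from the start of Hspd1, and on the plus strand at -89 from that of Hspe1. Among the 4 genes with this element, log2 fold changes were 0.16 for Hspd1, -0.58 for Hspe1, 0.11 for Hsph1 and -0.98 for Dnajb6, and the 4 overlapped between groups.

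Further mitochondrial members overlapped between groups as well. Hspa9, the HSP70 that pulls imported proteins into the matrix, had 219, 139, 102 and 179.8 with acLDL, against 179, 237, 228 and 209 in controls (log2 fold change -0.45, SE 0.27, -0.094 without acLDL 2 and 3, and -0.0047 with the covariate). Dnaja3, its J protein partner, had 30.2, 19.3, 0 and 12.6 with acLDL, against 15.2, 21.4, 18.8 and 25.2 in controls. Dnajc15, a J protein of the inner membrane, had 126, 200.5, 186 and 121 with acLDL, against 146, 114, 162 and 133 in controls. Log2 fold changes were -0.59 (SE 0.62) for Dnaja3 and 0.16 (SE 0.25) for Dnajc15, which turned to 0.325 and -0.11 with the covariate. Dnajc4 had 47.8, 0, 6.04 and 16.5 with acLDL, against 29.9, 101, 35.6 and 18.5 in controls. Dnajc4 reached a log2 fold change of -1.45 (SE 0.77, limma's adjusted p = 0.311), -0.36 without acLDL 2 and 3 and -0.30 with the covariate. It had the smallest p of the class, with acLDL 2, 3 and 4 below every control and acLDL 1 above 3 of the 4 controls.

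Other J proteins had a median of -0.29, with 4 of 13 tested genes higher and 9 lower in mean. Dnajb5, a cytosolic J protein, had 36.8, 0, 0 and 12.2 in acLDL libraries 1 to 4, against 17.5, 64.8, 32.3 and 66.0 in control libraries 1 to 4. Again acLDL 1 lay among the controls and the other 3 below them, at a log2 fold change of -1.96 (SE 0.77, limma's adjusted p = 0.298), -0.75 without acLDL 2 and 3, and -0.55 with the covariate. Dnajc8, found with the splicing machinery, had 258, 201, 299.6 and 197 with acLDL, against 438, 313, 269 and 338 in controls. It averaged 239 ± 49.0 with acLDL, against 339 ± 71.9 in controls (SD, n = 4 each). The log2 fold change of -0.50 (SE 0.23, limma's adjusted p = 0.299) was -0.56 without acLDL 2 and 3 and -0.62 with the covariate. Dnajc5, the cysteine string protein of secretory vesicles, had 513, 904, 1043 and 762 with acLDL, against 703, 469, 521 and 513 in controls (log2 fold change 0.51, SE 0.25, 0.20 without acLDL 2 and 3, and 0.067 with the covariate). Acting as part of the transport system of cilia rather than as a heat shock protein, the product of Hspb11 belongs to the class by its symbol only. Hspb11 had 50.3, 0, 0 and 0 with acLDL, against 5.16, 18.5, 52.1 and 38.9 in controls (log2 fold change -1.61, SE 0.92), -0.74 without acLDL 2 and 3 and -0.081 with the covariate.

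Chaperone genes with the shortest 3' UTR, the end of the message that the kit named in the extract protocol reads, were mostly lower in mean, as were other genes of that kind. Among 12 tested members with a 3' UTR under 300 nt, 10 had a lower mean and the median log2 fold change was -0.99. Among 11 members from 300 to under 1000 nt, 5 were lower (median 0.035), and among 30 members of 1000 nt or more, 18 were lower (median -0.22). All tested genes had medians of -1.12, -0.42 and 0.039 in the same bins, over 1314, 2428 and 5246 genes. Hspa8 (83 nt), Cct5 (128 nt), Cct3 (219 nt) and Cct2 (245 nt) fall in the first bin, Cct4 (629 nt) and Cct8 (662 nt) in the second, and Hspa4 (1798 nt) and Dnajb1 (1834 nt) in the third. Genes within a bin differed. Tcp1 (591 nt, log2 fold change -1.32) falls in the second bin with Cct8 (0.62). Dnajb5 (1874 nt, -1.96) and Dnajb6 (1365 nt, -0.98) fall in the third with Hspa4 (0.60) and Dnajb1 (0.71). By whole transcript, Spearman's correlation of length with log2 fold change was 0.33 across 53 members and 0.28 across 8988 tested genes. Genes share the 8 libraries and are not independent replicates, and the part of length in any single fold change was not tested. With the short-transcript covariate the members' median was 0.030, against 0.013 for all genes, and 42 of the 55 members had a log2 fold change closer to 0. Because the covariate itself differed between groups, this shift cannot be told apart from removal of an acLDL effect.

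**Figure D5:**
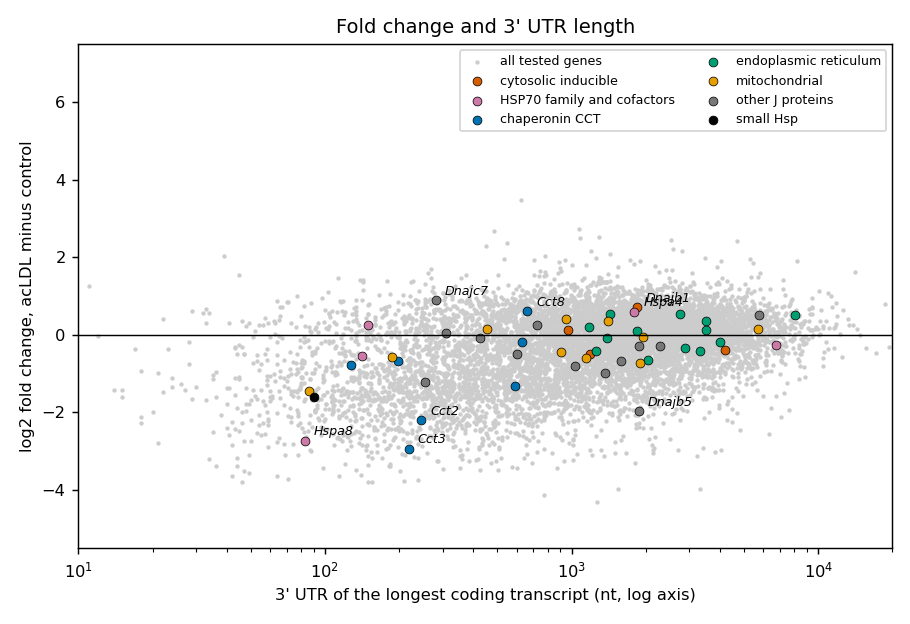
Log2 fold change (acLDL minus control, y axis) against the length of the 3' UTR in nt (log x axis), for genes with an annotated 3' UTR of 10 nt or more. Grey points are all tested genes and coloured points are chaperone genes by class. Hspa8, Cct2 and Cct3 lie at the lower left among other genes with short 3' UTRs. At longer ones Cct8 and Dnajb1 lie above 0 and Dnajb5 lies below 0.

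Without acLDL 1, 8 members passed the threshold as lower (14.5%) and 5 as higher (9.09%), against 14.4% and 7.28% of all tested genes in limma. The lower ones were Cct2, Cct3, Cct5, Hspa8, Dnaja2, Dnajb5, Dnajc19 and Hspb11, and the higher ones Hspa4, Cct8, Dnajb1, Dnajb14 and Dnajc5. Dnaja2 and Dnajc19 are named here after their values were seen. In that comparison of 3 acLDL libraries with 4 controls, 11 members (20%) lay wholly below the controls and 5 (9.09%) wholly above, against 18.9% and 14% of all genes. Shares of members lay near the background, or below it for those wholly above the controls.

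HSP90 and its cochaperones take over clients from HSP70. Their symbols fall outside the rule for members. Of 22 measured, 10 were higher and 12 lower in mean (median -0.27), none past the threshold. Hsp90ab1, the constitutive cytosolic HSP90, had 7662, 25511, 39175 and 24124 in acLDL libraries 1 to 4, against 13957, 6765, 10269 and 8039 in control libraries 1 to 4. The inducible Hsp90aa1 had 1063, 3172, 4648 and 3282 with acLDL, against 2049, 788, 1342 and 1169.5 in controls. For both, acLDL 2, 3 and 4 lay above every control and acLDL 1 among them, at log2 fold changes of 1.14 (SE 0.47) and 1.08 (SE 0.46), which were 0.53 and 0.56 without acLDL 2 and 3 and 0.22 and 0.22 with the covariate. The ER form Hsp90b1 ran the other way, with 1444, 323, 363 and 714 with acLDL, against 859.7, 1369, 1472 and 1235 in controls (log2 fold change -1.03, SE 0.45, -0.25 without acLDL 2 and 3, and -0.11 with the covariate). These 3 were chosen after their values were seen.

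In the HSP90 list and in those below, genes with the smallest p are given with values. Lack of overlap among them thus adds no separate support. Of all tested genes, 3.44% had acLDL wholly above the controls. Hsf2, a heat shock factor, had the smallest p of the HSP90 list. It had 456, 772, 791 and 521 with acLDL, against 393, 308, 373 and 263 in controls, with no overlap. Its log2 fold change was 0.89 (SE 0.25, limma's adjusted p = 0.298), 0.56 without acLDL 2 and 3, and 0.53 with the covariate. St13, which bridges HSP70 and HSP90, did not overlap either (428 ± 136 with acLDL and 247 ± 33.1 in controls, SD, n = 4). Bag5, named after its values were seen, was the only other gene of the list without overlap. Bag3, an exchange factor of the stress response, averaged 17.3 ± 21.9 and 66.0 ± 21.9, with acLDL 1 among the controls. The log2 fold change of Bag3 was -2.31, and -0.86 with the covariate. Hsf1, the main heat shock factor and also named after its values were seen, averaged 103 ± 42.1 with acLDL and 131 ± 71.7 in controls.

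Prefoldin, which delivers unfolded actin and tubulin to CCT, also had members on both sides: 3 of 6 were higher and 3 lower in mean, with a median of 0.14. Pfdn1 had 644, 1316, 1919 and 1361 with acLDL, against 629, 536, 500.4 and 539 in controls. Every acLDL value of Pfdn1 lay above every control, at a log2 fold change of 1.14 (SE 0.31, limma's adjusted p = 0.298), 0.76 without acLDL 2 and 3, and 0.57 with the covariate. Pfdn5 averaged 1866 ± 698 and 1010.3 ± 89.9, and Pfdn4 37.6 ± 49.7 and 94.9 ± 37.5, with acLDL and in controls. For both, acLDL 1 lay among the controls, and log2 fold changes of 0.79 and -1.87 came to 0.23 and -0.36 with the covariate.

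Further ER folding and unfolded protein response genes had a median of -0.38, with 5 of 17 tested genes higher and 12 lower in mean. The disulfide isomerase gene P4hb averaged 55.6 ± 72.7 with acLDL, against 126 ± 49.3 in controls (SD, n = 4 each), Manf, a secreted ER stress factor, 97.2 ± 79.5 and 179 ± 40.8, and Sec63, the J protein of the translocation channel, 939 ± 321 and 569.7 ± 139. For all 3, acLDL 1 lay among the controls. Their log2 fold changes of -1.75, -1.15 and 0.68 came to -0.23, -0.068 and 0.16 with the covariate. Of 7 tested genes of mitochondrial protein quality, 4 were higher and 3 lower (median 0.097). Grpel2, an exchange factor for Hspa9, averaged 174 ± 34.6 and 108 ± 34.8, and Tomm20, an import receptor, 1831 ± 226 and 1337 ± 58.7, both without overlap between groups. Clpp, the matrix protease, averaged 13.1 ± 19.1 and 31.4 ± 10.2, with acLDL 1 above every control. Its log2 fold change of -1.58 came to -0.14 with the covariate. Over all genes, limma called no gene of these lists.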

How the data were processed

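Messenger RNA was measured in 8 libraries (4 acLDL, 4 control). An RNeasy extraction and the Lexogen QuantSeq kit, which reads the 3' end, are named per the labels' protocols, whereas the design text names the 5' end. Tools named per the submitters' processing notes are bcl2fastq 2.20 and kallisto, with build mm10 (GRCm38). For annotation, filtering and normalization, no method is named there. The deposited values are a normalized signal per gene symbol, not whole counts, with library totals from 3917426 to 4385052, so depth is unknown and no counting interval was computed.

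The 10091 genes reaching 10 in 4 or more libraries were fitted by limma (trended variance, robust) on log2(value + 5), with group as single term. Benjamini-Hochberg adjustment ran over these genes, and 0.05 was the threshold. The fit was run on simulated data with independent noise, capped at the median SD of the genes. Those data lack the variation shared across genes of a library, so they do not show the power or error of the fit here. Classes and lists come from general knowledge, and members and lists were chosen with earlier results of these data known. In each list of other folding genes, the 3 genes with the smallest p are given with values. Described in full were a fixed list of members, the 5 with the smallest p in each direction, and in each class the highest mean and the smallest p. Hspa1b and Hspb1 of that list are not analysed here, and the values of 1 tested mitochondrial member, which stays in all counts and medians, are not reported here. GENCODE mouse release 21 (GRCm38) gave coordinates and the longest coding transcript, and 96.6% of symbols matched. Promoters came from RefSeq (GRCm38.p6), and 50 of 61 members matched. Alternatives were other pseudocounts, filters, normalizations and weights, a replicate block, the short-transcript covariate, and left-out libraries. Software versions were R 4.3.3, limma 3.58.1 and Python 3.11.15.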

Additional observations from a re-analysis of the deposited data

Results flagged for a closer look

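Values of 8 groups of 4 libraries held 1 library far from the other 3, by a test that chance passes in about 1 of 20 groups. Since 55 tested members have values in both groups, several such cases would arise by chance alone, and their number is not read as a result. In 5 of them the library was acLDL 1. Cct2 was at 346 in acLDL 1, against 8.02 to 47.9 in the other acLDL libraries, Hspa8 at 3612, against 42.15 to 509, and Hspb11 at 50.3, against 0 in the other 3. For Hspb11 the equal values of 0 are the floor of the deposited signal, which makes such a gap easy to reach. For Hspa4, acLDL 1 was low, at 1286, against 1643 to 1689, and for Dnajb12 low as well, at 67.7, against 98.2 to 104. Library acLDL 2 was high for Dnajb6, at 572, against 226 to 245, and for Dnajc3, at 1413, against 910.1 to 979. Control 1 was low for Cct6a, at 34.1, against 73.8 to 81.6 in the other controls.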

How the results depend on the processing

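No member passed the threshold with pseudocounts of 1 or 20, size factors, quantile normalization, other filters, the covariate, the replicate block or without acLDL 2 and 3. With array weights 1957 genes passed, 10 of them members, and quantile normalization called 1 gene, no member. Leaving out each library in turn called from 0 to 2190 genes and from 0 to 13 members, with the members' median between -0.33 and -0.17, and only leaving out acLDL 1 called any. The members' median of -0.28 became 0.044 with quantile normalization, 0.030 with the covariate, -0.44 with array weights and -0.037 without acLDL 2 and 3. Same-numbered libraries did not deviate together (correlations from -0.553 to 0.034). This does not settle whether the numbers pair them, since 62.6% of the variance lay along the first principal component and could hide a weaker shared part. The replicate block called 0 members, with the median at -0.28. In each setting the following log2 fold changes took the other sign, and the cause was not tested. With the covariate they were Dnajc21 -0.67, Hsph1 -0.27, Dnajc30 -0.21, Dnajc15 -0.11, Dnajc11 -0.036, Cct6a 0.020, Cct4 0.035, Dnajc16 0.067, Dnaja1 0.075, Dnajb4 0.10, Hspa14 0.11, Hspe1 0.11, Dnajc19 0.20, Dnajc12 0.28, Dnajc24 0.28, Hspa8 0.32, Dnaja3 0.32, Dnajb9 0.33, Tcp1 0.37, Dnajb2 0.69. Without acLDL 2 and 3 they were Dnajc21 -0.49, Hsph1 -0.32, Dnajc15 -0.15, Dnajb12 -0.024, Dnajc3 -0.015, Hspa14 0.011, Dnajc19 0.022, Dnajc16 0.058, Dnajb9 0.19, Dnajc12 0.24, Dnajb2 0.27. After quantile normalization, which put the median of all genes at 0.15, against -0.13, they were Dnaja3 0.028, Hspa14 0.031, Dnajc2 0.044, Hspa4l 0.044, Dnajb9 0.12, Cct6a 0.14, Dnajc18 0.23, Dnajb2 0.26, Dnajc16 0.33, Dnajc28 0.39. With array weights they were Hspd1 -0.030, Dnajc18 0.0064, and with size factors Dnajc21 -0.0057. Leaving out single libraries gave ranges across 0 for Cct6a -0.45 to 0.057, Dnajb12 -0.14 to 0.23, Dnajb2 -0.76 to 0.31, Dnajb9 -0.28 to 0.054, Dnajc18 -0.35 to 0.0094, Dnajc2 -0.21 to 0.0075, Dnajc21 -0.28 to 0.34, Dnajc25 -0.71 to 0.00097, Dnajc28 -0.53 to 0.40, Dnajc3 -0.019 to 0.19, Dnajc7 -0.13 to 1.34, Hspa14 -1.01 to 0.14, Hspbap1 -0.0088 to 0.46, Hsph1 -0.10 to 0.30. Depth is unknown and low values are listed at 0, which limits what Hspa1a and other low members can show.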
